A study of Mus musculus with 6 samples.

Results

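The renin-angiotensin genes followed here in mouse liver are Agt, Agtr1a, Mas1, Ace and Enpep. They were taken by symbol from a table of 24489 gene entries, and 5 of 5 were found. The group was chosen by its read counts in the very comparison described here, so the members' differences between genotypes are given as a description, with standard errors and no test. Polyadenylated RNA from one lobe of the liver of untreated pups, at postnatal day 10 and on a C3H/C57bl6J background, was sequenced in 3 Jag1Ndr/Ndr and 3 Jag1+/+ libraries. Jag1 encodes a ligand of the Notch receptors. Ndr (Nodder) is a missense allele of it, and its homozygotes serve to model Alagille syndrome, a disorder with few bile ducts. The mutation is in the germ line, so it is not limited to a cell type of the liver.

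The renin-angiotensin system is a chain of peptides made from one precursor. Angiotensinogen (Agt) is secreted by hepatocytes, renin cuts it to angiotensin I, and angiotensin-converting enzyme (Ace) trims that to angiotensin II, which acts through the type 1 receptor (Agtr1a). Aminopeptidase A (Enpep) shortens angiotensin II to angiotensin III. In the opposing arm, neprilysin (Mme) is among the peptidases that yield angiotensin-(1-7), a peptide described as a ligand of the receptor encoded by Mas1.

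The sequences just upstream of Mas1 and Ace, the members that differed most between the genotypes, are shown with that of Agt, the most abundant one. Each is the 250 bases before the transcription start in the RefSeq promoter table for GRCm38.p6, 5′ to 3′ on the gene's own strand. Capitals mark matches, on either strand, to any of 4 motifs searched as letters: TATAAA (the TATA box), CCAAT (the CCAAT box), TTCNNNGAA (a STAT-type palindrome) and GTTAAT (an HNF1 half-site). No motif overlapped another here. The windows are chr17:12868144-12868393 on the minus strand for Mas1, chr11:105967698-105967947 on the plus strand for Ace and chr8:124569707-124569956 on the minus strand for Agt. The Mas1 gene span given below ends at 12868150, so the last few bases of its window lie inside that span.
Mas1: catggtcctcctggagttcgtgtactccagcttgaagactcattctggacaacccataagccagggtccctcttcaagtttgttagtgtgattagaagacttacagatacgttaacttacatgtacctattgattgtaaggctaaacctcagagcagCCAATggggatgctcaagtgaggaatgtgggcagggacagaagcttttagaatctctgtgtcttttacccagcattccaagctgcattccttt
Ace: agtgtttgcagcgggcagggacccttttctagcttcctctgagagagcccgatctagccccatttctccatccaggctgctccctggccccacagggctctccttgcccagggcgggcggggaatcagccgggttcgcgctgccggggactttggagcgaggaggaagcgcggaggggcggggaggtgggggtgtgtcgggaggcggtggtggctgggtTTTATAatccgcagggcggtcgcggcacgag
Agt: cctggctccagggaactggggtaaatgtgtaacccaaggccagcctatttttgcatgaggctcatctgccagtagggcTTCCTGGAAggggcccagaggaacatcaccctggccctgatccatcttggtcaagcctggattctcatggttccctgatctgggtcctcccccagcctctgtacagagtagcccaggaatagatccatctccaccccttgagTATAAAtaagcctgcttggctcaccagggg
The Mas1 window held a CCAAT match that begins 93 bases before the start, and no TATAAA. The Ace window held TATAAA, read on the opposite strand, 31 bases before the start, and another Ace start in the table, farther into the gene, had the CCAAT letters on the opposite strand 25 bases before it. The Agt window held TATAAA 30 bases and TTCCTGGAA 172 bases before the start. For Enpep the letters of the TATA box began at 52 bases and those of the CCAAT box at 77 bases, both read on the opposite strand, and those of the palindrome at 141 bases. GTTAAT was in none of these windows, which says only that those letters are not there. The promoter table held 4 of the 5 members, all but Agtr1a. Among 32851 promoter windows of this length, 12.4% held TATAAA, 33.8% CCAAT, 7.02% TTCNNNGAA and 6.43% GTTAAT. These matches are descriptions of letters, not of binding.

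Reads over gene entries ranged from 12992592 to 59653111 per library. Levels are given as CPM, a gene's reads scaled to a common library size with TMM factors, and a count of 0 allows at most 0.0421 CPM in the deepest and 0.266 CPM in the shallowest library (3 reads, counting error only). By Xist and Y-linked reads, Jag1+/+ replicate 1 and Jag1Ndr/Ndr replicates 2 and 3 were from females and the other libraries from males. Albumin took 16.9% to 17.3% of the reads in Jag1+/+ and 10.3% to 13.0% in Jag1Ndr/Ndr libraries. Jag1 itself ranged from 5.21 to 6.82 CPM in the controls and from 3.01 to 5.92 CPM in the mutants, and the missense change need not alter its transcript. The labels do not say that each library is a separate animal. Both sexes occurred in each genotype, so its libraries were not all from the same animal. Libraries of the same sex may be, so p-values measure the spread between these libraries, which may in part be technical. In bulk tissue, fewer cells of a type and less RNA per cell cannot be told apart.

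In brief, Mas1 was far lower and Ace higher in all Jag1Ndr/Ndr libraries. In CPM, after TMM scaling, Agtr1a was slightly lower, and Agt and Enpep overlapped between the genotypes. All 5 members passed the filter on low counts. In 3 of them the libraries of the genotypes did not overlap, which also held for 29.0% of the 13819 genes tested. Since the members were chosen by this contrast, nothing is read from that share.

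**Figure D1:**
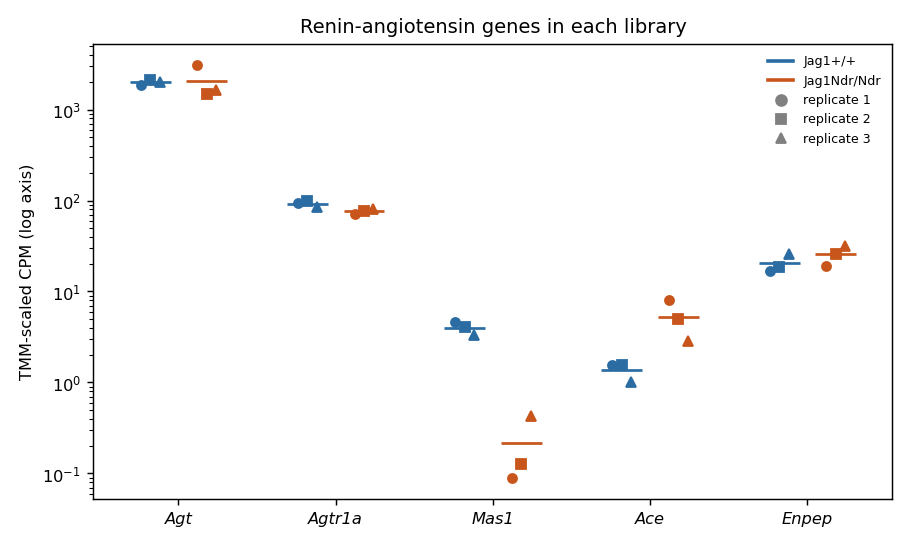
TMM-scaled CPM (log axis) of the 5 members in each library, with colour for the genotype, marker shape for the replicate and a line at each genotype's mean. The Jag1Ndr/Ndr libraries lie between 0.0886 and 0.427 CPM for Mas1, under the Jag1+/+ range of 3.36 to 4.57 CPM, and between 2.88 and 7.98 CPM for Ace, above the Jag1+/+ range of 1.01 to 1.56 CPM.

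Agt, the precursor (chromosome 8, positions 124556587 to 124569706 of GRCm38, the RefSeq gene), measured 1853, 2129 and 2025 CPM in Jag1+/+ replicates 1, 2 and 3. It measured 3113, 1497 and 1634 CPM in Jag1Ndr/Ndr replicates 1, 2 and 3. One mutant library lay above all controls and both others below them, so the genotypes overlapped in CPM. The means were 2002 ± 139 and 2081 ± 896 CPM (SD, n = 3 per genotype), a log2 fold change of 0.06 ± 0.30 (Jag1Ndr/Ndr over Jag1+/+, standard error). Its sign turned with single libraries and settings, and without Jag1Ndr/Ndr replicate 1 the log2 fold change was -0.36. Per length, in the deposited RPKM, Agt ranked between 34 and 46 of 24489 entries in every library, so it was among the most abundant liver transcripts in both genotypes. Its RPKM were 953, 1082 and 1026 in Jag1+/+ and 1207, 1269 and 1089 in Jag1Ndr/Ndr replicates 1, 2 and 3, without overlap. These RPKM were multiplied by TMM factors that edgeR would divide by, so the overlap of Agt depended on the scaling. With the factors dividing, the log2 fold change was -0.04.

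Relative to albumin (Alb), another secreted hepatocyte protein, Agt did not overlap between the genotypes. Its RPKM was 1.17%, 1.31% and 1.27% of that of Alb in Jag1+/+ and 2.31%, 1.93% and 1.78% in Jag1Ndr/Ndr replicates 1, 2 and 3. Such a ratio within a library does not depend on the scaling between libraries, and it shows unequal change only. The summed level of 9 hepatocyte markers, Alb among them, ranged from 267157 to 275741 CPM in Jag1+/+ and from 139633 to 255023 CPM in Jag1Ndr/Ndr, and its highest mutant value was in replicate 1, as for Agt. Alb made up 58.8% to 66.2% of this sum, so it largely repeats the comparison with Alb. Without Alb the sum ranged from 90331 to 95575 CPM in Jag1+/+. In Jag1Ndr/Ndr it was 105022, 53460 and 65541 CPM in replicates 1, 2 and 3, so the genotypes overlapped. Of these 9 markers, 1 (Ttr) passed the test as lower, and Hnf4a, Apoc3 and Ahsg had log2 fold changes of 0.08, 0.11 and 0.00. Their part in the Agt values was not tested.

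Ace, the converting enzyme (chromosome 11, positions 105967948 to 105989964), was scarce in control liver. It was counted with 27, 48 and 39 reads in Jag1+/+ replicates 1, 2 and 3, or 1.56, 1.56 and 1.01 CPM. In Jag1Ndr/Ndr replicates 1, 2 and 3 it had 90, 357 and 54 reads, or 7.98, 5.01 and 2.88 CPM. Every mutant library was above every control, and the mutants were spread 2.77-fold among themselves, against 1.55-fold in the controls. The means were 1.38 ± 0.319 and 5.29 ± 2.56 CPM (SD, n = 3), a log2 fold change of 1.94 ± 0.40, or 3.83-fold. Of the 13819 genes tested, 266 had a larger fitted value. The females measured 1.56 against 5.01 and 2.88 CPM and the males 1.56 and 1.01 against 7.98 CPM, so the gap was present in both sexes.

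Ace is known as an enzyme of endothelial cells and of activated macrophages. The summed level of 10 sinusoidal endothelial markers ranged from 722 to 834 CPM in Jag1+/+ and from 726 to 791 CPM in Jag1Ndr/Ndr, so the ranges overlapped. That of 8 macrophage markers ranged from 647 to 1141 CPM and from 1387 to 2326 CPM, without overlap, and 1 of the 8 passed the test as higher. In the mutants both Ace and this sum were highest in replicate 1. Marco, the largest of the 8 there, measured 945, 386 and 343 CPM in Jag1Ndr/Ndr replicates 1, 2 and 3. All but Adgre1 (48.7, 67.8 and 53.8 CPM) and Csf1r (187, 223 and 183 CPM) were highest in replicate 1. None of these markers was at 0, and their part in the Ace values was not tested.

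Enpep, aminopeptidase A (chromosome 3, positions 129269177 to 129332749), measured 16.7, 18.7 and 25.9 CPM in Jag1+/+ replicates 1, 2 and 3. It measured 19.2, 25.9 and 31.7 CPM in Jag1Ndr/Ndr replicates 1, 2 and 3. The genotypes overlapped, with Jag1Ndr/Ndr replicates 1 and 2 inside the control range and only replicate 3 above it. The means were 20.5 ± 4.83 and 25.6 ± 6.23 CPM (SD, n = 3), a log2 fold change of 0.32 ± 0.23. Enpep is also known as the BP-1 antigen of early B cells. The summed level of 6 B cell markers ranged from 53.0 to 77.2 CPM in Jag1+/+ and from 13.4 to 49.1 CPM in Jag1Ndr/Ndr, with 1 of 6 passing the test as lower. The Enpep mean was higher and that sum lower in the mutants, and the part of these cells in the Enpep values was not tested.

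Agtr1a, the type 1 angiotensin II receptor (chromosome 13, positions 30336356 to 30382867), measured 94.9, 98.4 and 84.4 CPM in Jag1+/+ replicates 1, 2 and 3. It measured 70.9, 76.7 and 80.5 CPM in Jag1Ndr/Ndr replicates 1, 2 and 3. The ranges did not overlap but lay close, with a gap from 80.5 to 84.4 CPM. The means were 92.6 ± 7.31 and 76.0 ± 4.82 CPM (SD, n = 3), a log2 fold change of -0.28 ± 0.14. Its small difference depended on the scaling: with library totals it was -0.16, and in the deposited RPKM the means were 38.0 ± 3.14 and 39.2 ± 15.5, overlapping. With the header factors of the RPKM dividing, as edgeR uses them, it was -0.30. The paralogue Agtr1b had 1 read in all 6 libraries together, so Agtr1a was the type 1 receptor gene seen in this tissue.

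Mas1 (chromosome 17, positions 12838841 to 12868150) was counted with 79, 124 and 130 reads in Jag1+/+ replicates 1, 2 and 3, or 4.57, 4.02 and 3.36 CPM. In Jag1Ndr/Ndr replicates 1, 2 and 3 it had 1, 9 and 8 reads, or 0.0886, 0.126 and 0.427 CPM. The highest mutant library was far below the lowest control. The means were 3.99 ± 0.609 and 0.214 ± 0.185 CPM (SD, n = 3), a log2 fold change of -4.29 ± 0.50, or 19.6-fold lower. Only 15 of the 13819 genes tested had a lower fitted value. From the reads alone, 333 against 18, the ratio of rates was 21.6, a description only, since the group was chosen by these counts. Both sexes showed the gap, with 4.57 against 0.126 and 0.427 CPM in the females and 4.02 and 3.36 against 0.0886 CPM in the males.

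The mutant values of Mas1 were near the limit of detection. In replicate 1 the single read gives an exact 95% interval of 0.00224 to 0.494 CPM, and in replicates 2 and 3 the intervals were 0.0577 to 0.240 and 0.184 to 0.841 CPM. The interval of replicate 1 thus covers the values of both others. The lowest bound among the controls, in replicate 3, was 2.81 CPM. These intervals cover counting error only and are no test between the genotypes. The size of the difference moved with single mutant libraries: the log2 fold change was -5.03 without Jag1Ndr/Ndr replicate 3 and -3.75 without replicate 2.

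Mas1 lies in the imprinted cluster of Igf2r, the receptor for mannose 6-phosphate and insulin-like growth factor II, and of Airn, the long noncoding RNA transcribed across it. In the GENCODE M21 models, Airn runs on the plus strand and Mas1 on the minus strand, and their spans share 19058 bases, or 70.4% of the Mas1 span, but 0 exonic bases. The kit does not mark the strand, so reads of unspliced Airn over Mas1 cannot be told apart from Mas1 reads. Airn itself had 21, 28 and 39 reads in Jag1+/+ and 11, 107 and 11 reads in Jag1Ndr/Ndr replicates 1, 2 and 3. The means were 1.04 ± 0.157 and 1.02 ± 0.459 CPM (SD, n = 3), with overlapping libraries, and the log2 fold change was 0.04 ± 0.39 (edgeR adjusted p = 0.968). Airn over Mas1, in RPKM, was 0.659, 0.698 and 0.817 in the controls and 27.3, 24.6 and 5.0 in the mutants. It mostly restates the Mas1 difference, since Airn overlapped between the genotypes.

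Among 12 genes listed around Mas1, 11 were tested, of which 1 rose and none fell by edgeR's quasi-likelihood test, with 3 at an unadjusted p under 0.05. DESeq2 called 1 higher and 1 lower, the latter being Plg, and limma on the deposited RPKM called 1 higher and none lower. Their median log2 fold change was -0.12, and the range ran from -0.43 to 1.23. Igf2r measured 67.7 ± 1.71 and 70.9 ± 10.9 CPM (SD, n = 3), and its log2 fold change was 0.07 ± 0.15 (edgeR adjusted p = 0.847). Slc22a2, an organic cation transporter, did not pass the filter and was not tested. It had 1, 7 and 5 reads in the controls and 0, 3 and 0 reads in Jag1Ndr/Ndr replicates 1, 2 and 3. For the pooled reads, 13 against 3, the ratio of rates was 5.06 (exact 95% interval 1.39 to 27.7). That interval covers counting error only, not the spread between libraries, and is no test between the genotypes. Next to these values stands that of Mas1, at -4.29.

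**Figure D2:**
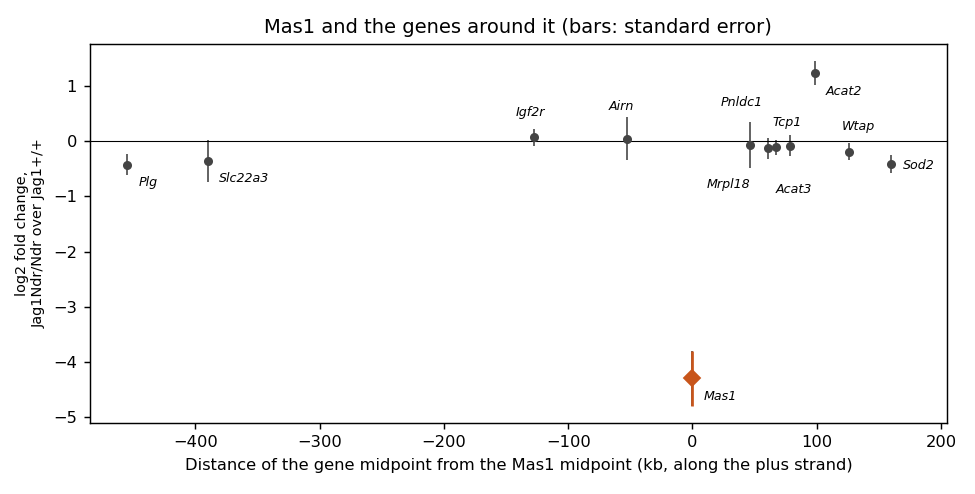
Log2 fold change (Jag1Ndr/Ndr over Jag1+/+, bars for the standard error) of Mas1 and the 11 tested genes around it, against the distance in kb between gene midpoints. Mas1 stands at -4.29, and the other genes lie between -0.43 (Plg) and 1.23 (Acat2).

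The neighbour that rose was Acat2, a cytosolic acetyl-CoA acetyltransferase that feeds cholesterol synthesis. It measured 26.2, 25.4 and 25.6 CPM in the controls and 80.0, 43.2 and 58.1 CPM in Jag1Ndr/Ndr replicates 1, 2 and 3. The mutants were all higher and far more spread than the controls. The log2 fold change was 1.23 ± 0.22 (edgeR adjusted p = 0.0149). The call was lost when Jag1+/+ replicate 1, 2 or 3 was left out (edgeR adjusted p = 0.0686, 0.0808 and 0.0765), and on RPKM with the header factors dividing (limma adjusted p = 0.0605). It was kept on the deposited RPKM with pseudocounts of 1 and 0.1 (limma adjusted p = 0.0282 and 0.0412). Acat3, a near copy beside it, measured 53.8 ± 5.34 and 50.9 ± 12.2 CPM (SD, n = 3), so the members of this pair did not move together, and reads that fit both could not be assigned with certainty.

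Between the genes, levels were compared per length, in the deposited RPKM. The order was Agt, Agtr1a, Enpep, Mas1, Ace in 3 of 3 Jag1+/+ libraries, and Agt, Agtr1a, Enpep, Ace, Mas1 in 3 of 3 Jag1Ndr/Ndr libraries. Only the last places were exchanged. In RPKM, Jag1+/+ means ± SD were 1020 ± 64.5 for Agt, 38.0 ± 3.14 for Agtr1a, 4.55 ± 1.04 for Enpep, 1.51 ± 0.242 for Mas1 and 0.276 ± 0.0662 for Ace. In Jag1Ndr/Ndr livers they were 1188 ± 91.3, 39.2 ± 15.5, 7.36 ± 3.56, 0.105 ± 0.0956 for Mas1 and 1.18 ± 0.465 for Ace (n = 3). In each genotype, neighbours in the order did not overlap.

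Ratios within a library need no scaling between libraries. Mas1 and Ace belong to a group chosen by this contrast, so their ratio restates the exchange and nothing further is read from it. Mas1 over Ace was 5.75, 4.69 and 6.30 in Jag1+/+ and 0.0218, 0.0480 and 0.291 in Jag1Ndr/Ndr replicates 1, 2 and 3. Per 100 of Agtr1a, the receptor that responds to angiotensin II, Mas1 stood at 4.45, 3.77 and 3.67 in the controls and at 0.115, 0.152 and 0.489 in the mutants. This ratio differed in each mutant library from each control. It mostly restates the Mas1 difference, since Agtr1a differed far less, so nothing further is read from it. Per 100 of Enpep, Ace stood at 8.09, 7.79 and 3.50 in the controls and at 35.9, 17.3 and 7.88 in the mutants. This last pair of ranges overlapped, since the lowest mutant lay between the control values.

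**Figure D3:**
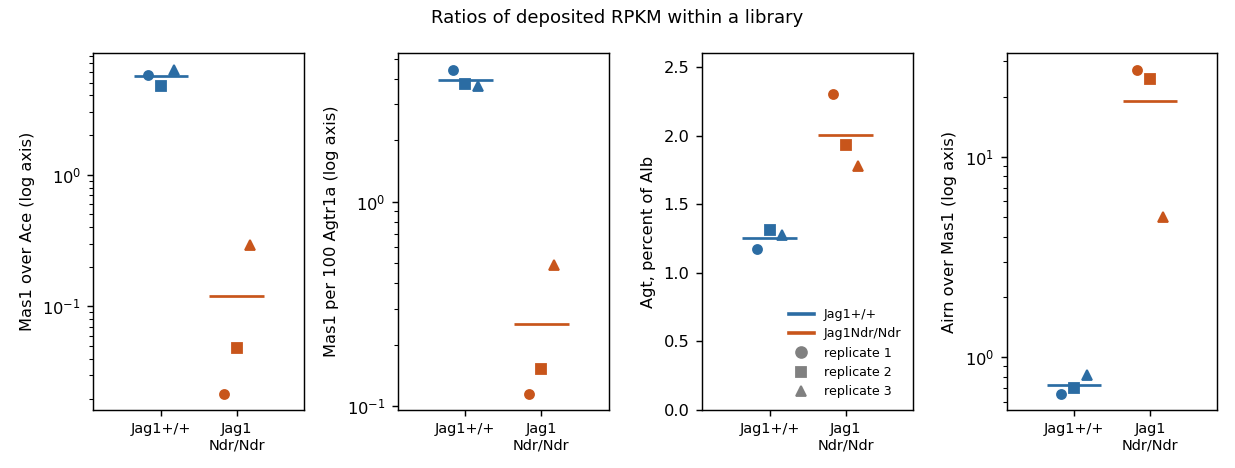
Ratios of deposited RPKM within each library (log axes, but a linear axis from 0 for Agt as a percent of Alb), with colour for the genotype, marker shape for the replicate and a line at each genotype's mean. Mas1 over Ace lies between 4.69 and 6.30 in Jag1+/+ and between 0.0218 and 0.291 in Jag1Ndr/Ndr, and the other ratios plotted (Mas1 per 100 Agtr1a, Agt as a percent of Alb and Airn over Mas1) do not overlap between the genotypes either.

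The other genes of the system were taken as 6 lists with 68 genes, of which 55 could be tested on the whole table. Of these, 3 rose (Ctsg, Cebpd and Acat2), 2 fell (Mme and Hsd11b1) and 50 did not pass, with 19 at an unadjusted p under 0.05. Among all genes tested, 4.73% were called higher and 2.90% lower (edgeR's quasi-likelihood test, p adjusted by Benjamini-Hochberg, threshold 0.05), so the shares that edgeR called in the lists were near the background. At an unadjusted p under 0.05 the share was 34.5% of the listed genes and 22.5% of all genes tested. The median log2 fold change was 0.03 over the lists and 0.00 over all genes tested. Another tool, DESeq2, called 7 of 58 listed genes higher (12.1%) and 5 lower (8.62%), where it called 7.22% and 4.73% of all genes it tested.

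**Figure D4:**
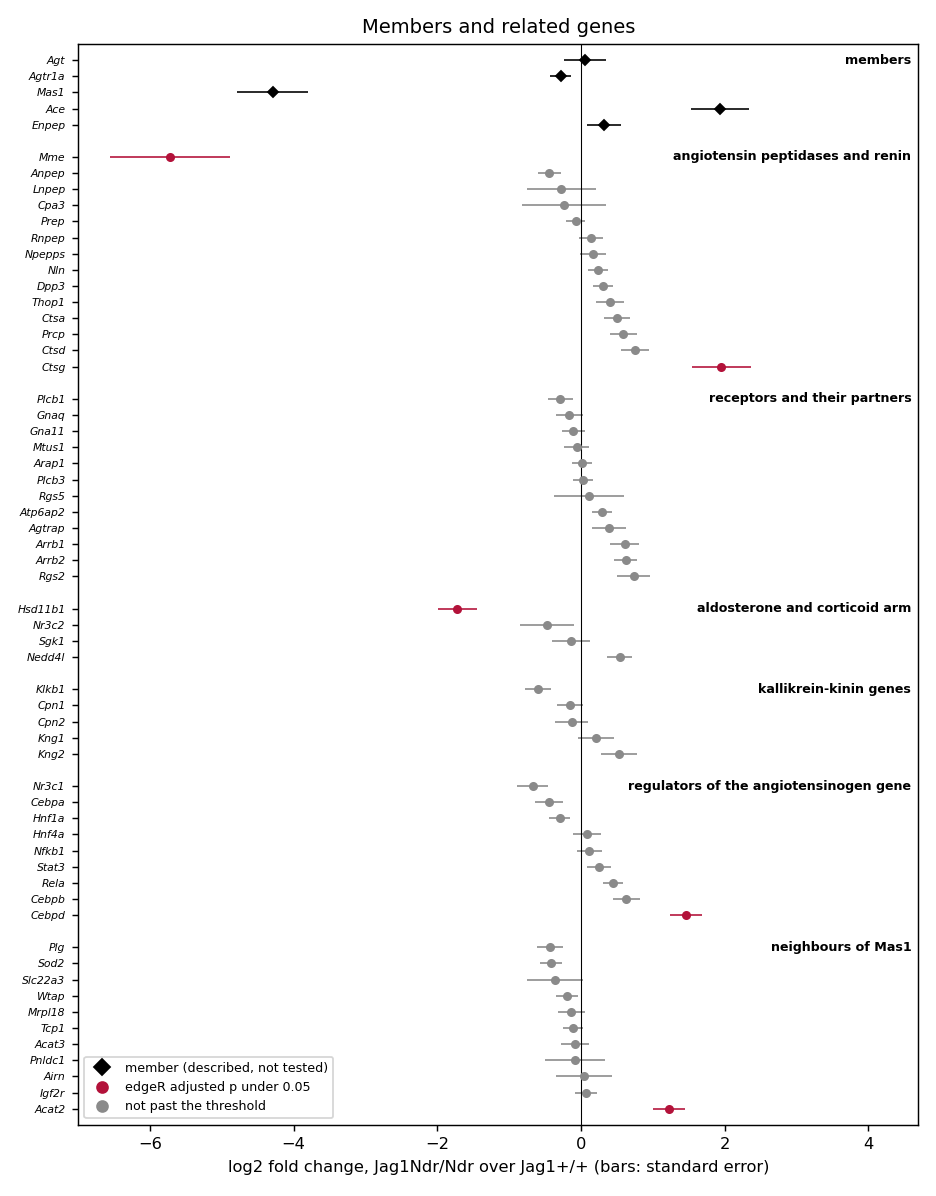
Log2 fold change (Jag1Ndr/Ndr over Jag1+/+, bars for the standard error) of the members and of the tested genes of each related list, with those past the adjusted p of 0.05 marked among the related genes. Most lie near 0, and Mme at -5.72 and Ctsg at 1.96 stand at the ends.

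Of the 17 genes listed as angiotensin peptidases and renin, 14 were tested, 1 rose, 1 fell, and their median log2 fold change was 0.20. Ren1, the renin gene, had 0 reads in all 6 libraries. Mme, neprilysin, a membrane peptidase that makes angiotensin-(1-7) from angiotensin I, was counted with 67, 77 and 150 reads in Jag1+/+ and 2, 0 and 3 reads in Jag1Ndr/Ndr replicates 1, 2 and 3. In CPM these were 3.88, 2.50 and 3.88 against 0.177, 0 and 0.160. The mutants were almost without it. The ratio of rates, 294 pooled reads against 5, was 68.6 (exact 95% interval 29.1 to 213, counting error only). The log2 fold change was -5.72 ± 0.84 (edgeR adjusted p = 0.00836). Its size moved with single mutant libraries, to -4.31 without Jag1Ndr/Ndr replicate 2 and -6.76 without replicate 3, and on RPKM with a pseudocount of 1, a scale that compresses such low values, the call was lost (limma adjusted p = 0.0878). Mme is also the CD10 antigen of B cell precursors, whose marker sums are given with Enpep above, and their part in its fall was not tested.

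Ctsg, cathepsin G, a neutrophil granule protease that can release angiotensin II without Ace, measured 4.46, 3.08 and 2.66 CPM in the controls and 7.89, 21.5 and 9.28 CPM in Jag1Ndr/Ndr replicates 1, 2 and 3. All mutants were higher, replicate 2 most. The log2 fold change was 1.96 ± 0.41 (edgeR adjusted p = 0.0263). The call was lost without Jag1+/+ replicate 1, 2 or 3 (edgeR adjusted p = 0.0658, 0.103 and 0.107) and with a term for sex (edgeR adjusted p = 0.0575). So it was on the deposited RPKM with pseudocounts of 1 and 0.1 (limma adjusted p = 0.377 and 0.107). On RPKM with the header factors dividing it was kept (limma adjusted p = 0.0403, pseudocount of 0.1). Without Jag1Ndr/Ndr replicate 2 the log2 fold change was 1.36. The summed level of 7 neutrophil markers ranged from 611 to 737 CPM in Jag1+/+ and from 1036 to 2301 CPM in Jag1Ndr/Ndr, again highest in replicate 2, and 4 of the 7 passed as higher. None was at 0, and their part in the Ctsg rise was not tested. Ctsd, cathepsin D, stood just outside the threshold where its log2 fold change was 0.76 ± 0.20 (edgeR adjusted p = 0.0543). It was called higher by DESeq2 and by edgeR with library totals. Ctsd and, below, Arrb2 were named after their values were seen.

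Of 15 receptors and their partners, 12 were tested and none was called by the unblocked edgeR test, with 3 at an unadjusted p under 0.05 and a median log2 fold change of 0.07. DESeq2 called 2, Arrb2 and Rgs2, both higher, and limma on the deposited RPKM called none. Agtr2, the type 2 angiotensin receptor, and Mrgprd, another receptor for peptides of this family, had 0 reads in all libraries. Atp6ap2, the (pro)renin receptor, measured 37.4 ± 3.20 and 45.7 ± 3.02 CPM (SD, n = 3), and its log2 fold change of 0.29 ± 0.14 missed the threshold (edgeR adjusted p = 0.258). Arrb2, an arrestin that binds activated receptors, measured 36.7 ± 5.03 and 56.6 ± 6.38 CPM, just outside the threshold (edgeR adjusted p = 0.0543). Of the angiotensin receptor genes counted here, the members Agtr1a and Mas1 were those with reads in every library.

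The aldosterone and corticoid list had 4 of 7 genes tested, with 1 lower, 2 at an unadjusted p under 0.05 and a median of -0.30. Hsd11b1, which regenerates active glucocorticoid in hepatocytes, measured 519, 467 and 456 CPM in the controls and 206, 131 and 101 CPM in Jag1Ndr/Ndr replicates 1, 2 and 3. Its highest mutant was far under its lowest control. The log2 fold change was -1.72 ± 0.27 (edgeR adjusted p = 0.00998), beside the hepatocyte marker sums given with Agt, whose part was not tested. On RPKM with a pseudocount of 1 the call was lost (limma adjusted p = 0.0771). With a pseudocount of 0.1 it was kept on the deposited RPKM (limma adjusted p = 0.0410) and with the header factors dividing (limma adjusted p = 0.0205). The adrenal enzyme gene Cyp11b1 had 0 reads in all libraries. Of 8 kallikrein-kinin genes, 5 were tested and none was called by the unblocked edgeR test, with 1 at an unadjusted p under 0.05, a median of -0.13, 1 call of DESeq2 (Klkb1, lower) and none of limma on the deposited RPKM.

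All 9 regulators known for the angiotensinogen gene were tested, and 1 rose, with 4 at an unadjusted p under 0.05 and a median of 0.11. DESeq2 called 2 higher and 1 lower. Cebpd, an acute phase transcription factor, measured 4.52, 4.28 and 4.03 CPM in the controls and 9.22, 14.9 and 11.0 CPM in Jag1Ndr/Ndr replicates 1, 2 and 3. The mutants lay well above the narrow control range. The log2 fold change was 1.47 ± 0.23 (edgeR adjusted p = 0.00960), and the call was narrowly lost without Jag1+/+ replicate 2 (edgeR adjusted p = 0.0517). It was also lost on the deposited RPKM with pseudocounts of 1 and 0.1 (limma adjusted p = 0.306 and 0.0971). On RPKM with the header factors dividing it was kept (limma adjusted p = 0.0100, pseudocount of 0.1). Agt itself overlapped between the genotypes in CPM, as given above.

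**Figure D5:**
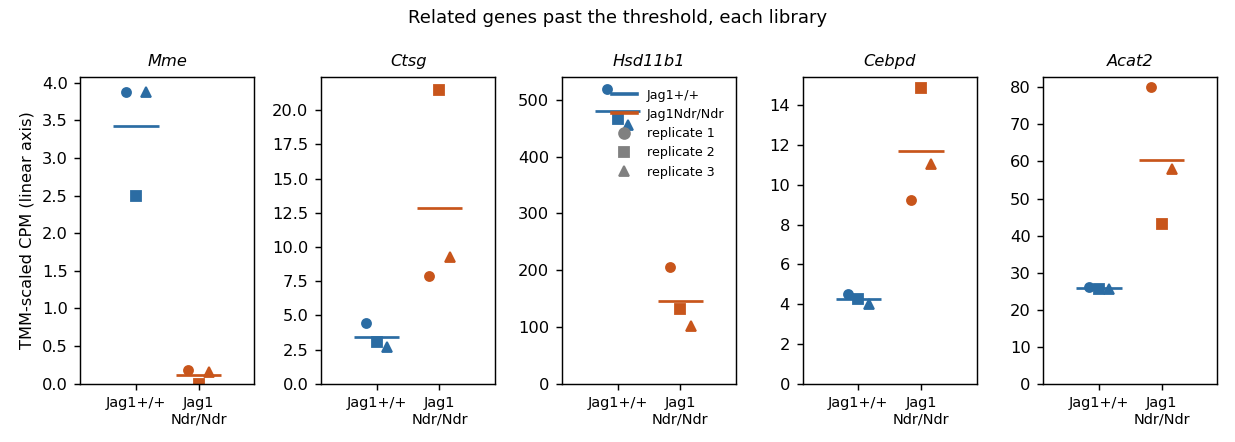
TMM-scaled CPM (linear axes from 0) of the 5 related genes past the threshold in each library, with colour for the genotype, marker shape for the replicate and a line at each genotype's mean. Mme and Hsd11b1 are lower and Ctsg, Cebpd and Acat2 higher in every Jag1Ndr/Ndr library.

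Genes with the pattern most like a member were found by Pearson's r of log2 CPM over the 6 libraries, among 11927 genes with at least 1 RPKM in the higher genotype. With 6 points that share library and genotype, such values describe likeness only. For Mas1 they were Hdac11, a histone deacetylase (r = 0.999), Rad51d, a DNA repair protein (r = 0.997), and Car5a, a mitochondrial carbonic anhydrase (r = 0.993). Car5a measured 26.7 ± 2.72 CPM in the controls and 3.43 ± 1.42 CPM in Jag1Ndr/Ndr (SD, n = 3). For Ace they were Ctsz, a lysosomal cathepsin (r = 0.999), Sepn1 (r = 0.996) and Dyrk3, a protein kinase (r = 0.995). An r of at least 0.95 was reached by 179 genes for Mas1 and 258 for Ace.

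For Agt, whose libraries overlapped in CPM, the most alike were Gpld1, a secreted liver phospholipase (r = 0.995), Ap5s1 (r = 0.994) and Snapc2 (r = 0.994). Gpld1 measured 250.4 ± 10.9 and 248.3 ± 58.7 CPM, so, like Agt, it was more spread in the mutants. For Agtr1a they were Phldb1 (r = 0.997), Fancf (r = 0.997) and Terf2ip (r = 0.995), and for Enpep Ptpra (r = 0.987), P4ha1 (r = 0.986) and Kalrn (r = 0.986). An r of at least 0.95 was reached by 87 genes for Agt, 24 for Agtr1a and 14 for Enpep. Of the members, Enpep had the fewest genes alike and Ace the most.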

How the data were processed

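The members and gene lists were chosen with earlier results of these data known. Per the file headers and the values, the deposited table holds the authors' whole read counts for each gene entry, not normalized. It also holds RPKM that the authors multiplied by TMM factors listed in the header (divided by the factor, 97.7% of the values of 13481 genes were within 5% of proportionality to the library's share of reads), whereas edgeR divides by such factors. Per the submitters' processing notes, STAR and mm10 were used, versions not given, and the read counter was not given in the sources used here. Of 24489 entries, 13819 passed filterByExpr, and the 93 entries for spike-ins and eGFP, 5 reads together, were dropped. Depth was 12992592 to 59653111 reads. Counts were tested with edgeR 4.0.16 (quasi-likelihood, TMM, 3 Jag1Ndr/Ndr against 3 Jag1+/+, two-sided, Benjamini-Hochberg over all genes, threshold 0.05) in R 4.3.3, and a standard error is the size of the log2 fold change divided by the square root of F. Log2 CPM used a prior count of 2. Named are all members, every related gene past the threshold, Ren1, Agtr1b, Agtr2, Mme, Atp6ap2, Igf2r and Airn, and 3 genes of closest likeness per member. Results for 2 listed genes are not reported here. Other genes that are named were chosen after their values were seen. Alternatives were other scalings and filters, DESeq2 1.42.0, limma 3.58.1 on log2 RPKM with pseudocounts of 1 and 0.1, a replicate block, a sex covariate and leaving out each library. A fit of RPKM with the header factors dividing was added after the data were seen. The test was checked on simulated data. Of the marker lists, Tf and Ly6g matched no entry. Lists not described elsewhere had these ranges of summed CPM in Jag1+/+ and Jag1Ndr/Ndr: stellate cells and fibroblasts 953 to 1084 and 724 to 1150, smooth muscle 13.0 to 40.8 and 28.9 to 41.2, cholangiocytes 61.3 to 108 and 43.0 to 139, erythroid cells 133 to 291 and 237 to 637, and mesothelium 6.10 to 29.7 and 31.0 to 38.9. Hba-a1 and Hba-a2 each matched several entries, and only the first was used, at 0 reads. Reads of their other entries are not in the erythroid sum, so these genes cannot be called absent. Promoters are from RefSeq tables of GRCm38.p6, where 4 of 5 members matched by symbol.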

Additional observations from a re-analysis of the deposited data

How the results depend on the processing

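Mas1 and Ace kept their direction in the 14 alternatives that gave them a value, as did Agtr1a and Enpep in 16 of 16. For Agtr1a on the deposited RPKM the direction is not resolved, at -0.037 ± 0.33 and -0.041 ± 0.38 (standard error, pseudocounts of 1 and 0.1). The filter of the limma fits with a pseudocount of 0.1 removed Mas1, Ace and Mme. With library totals the log2 fold change of Agtr1a was -0.16 and 210 genes in all were lower. With DESeq2 7 related genes were higher and 5 lower, and 1123 and 735 of all genes. With limma on RPKM and a pseudocount of 1 the counts were 1 and 0 of the related genes and 66 and 10 of all genes, with Agtr1a at -0.037, Mas1 at -1.18 and Ace at 0.75, a scale that compresses low values. With a pseudocount of 0.1 they were 1 and 1, and 217 and 45, with Agtr1a at -0.041. These RPKM moved the median log2 fold change by 0.21 and 0.23, and library totals by 0.13. Higher genes made up 86.8%, 82.8% and 74.3% of the calls. With the header factors dividing, 1 related gene was lower, 326 of all genes were higher, Agt stood at -0.040 and Airn at -0.18. With sex as a covariate 366 genes were higher and 230 lower, and Airn stood at -0.070.

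The labels do not say what a shared replicate number marks, and it was not taken as a pairing. The deviations of same-numbered libraries correlated at 0.0856, 0.170 and 0.195, and each library correlated best with its own number, which is a hint from the data and not from the design. With a replicate block 5 related genes were higher and 4 lower, the added ones being Arrb2 and Nedd4l (higher) and Klkb1 and Nr3c1 (lower), Agt stood at -0.027 and Airn at -0.043.

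Leaving out each library in turn gave 0 to 3 related genes higher and 2 lower each time, and 155 to 679 higher and 127 to 532 lower genes in all, the fewest without Jag1+/+ replicate 2. Agt ranged from -0.36 to 0.26 (0.00 without Jag1+/+ replicate 1), Mas1 from -5.03 to -3.75, Ace from 1.55 to 2.24, Agtr1a from -0.35 to -0.24 and Enpep from 0.14 to 0.53. Without Jag1Ndr/Ndr replicate 2, Igf2r stood at -0.052 and Airn at -0.44, and without Jag1+/+ replicate 2 Airn stood at -0.068. Over all 6 such fits Igf2r reached 0.16 and Airn 0.31. The cause of these moves was not tested. Depth limits what can be said of Mas1 and Mme in the mutants and of Airn and Agtr1b in both genotypes.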
